A study of Mus musculus with 11 samples.

Results

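The genes described here encode core proteins that carry heparan sulfate at the cell surface or in the basement membrane. They are the syndecans Sdc1, Sdc2, Sdc3 and Sdc4, the glypicans Gpc1, Gpc3, Gpc4 and Gpc6, and the basement membrane proteoglycans Hspg2 (perlecan) and Agrn (agrin). The 10 genes were listed by name from 27179 genes counted, not by a rule on their values, but with earlier results of these data known. All 10 passed the filter on low counts that left 17370 genes for testing. RNA-seq was done on basal and luminal cells sorted from terminal end buds (TEBs), the growing tips of the ductal tree in puberty, and from the ducts behind them. All mice were C57BL/6 females of 5 weeks carrying a GFP-tagged E-cadherin, and tissue was micro-dissected under the guidance of that fluorescence. Cells lacking Ter119, CD31 and CD45 and positive for CD29 and CD24 were split into luminal cells, bright for E-cadherin-GFP, and basal cells, dim for it. There were 3 libraries of basal duct, 3 of basal TEB, 2 of luminal duct and 3 of luminal TEB. Each came from a pool of at least 2 mice, and luminal duct replicate 2 had been dropped by the authors because too few cells were obtained.

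Heparan sulfate is a sulfated sugar chain that binds growth factors such as FGFs and Wnts, as well as extracellular matrix proteins. Syndecans span the plasma membrane, glypicans are held to it by a lipid anchor, and perlecan and agrin are secreted into the basement membrane, which in the mammary gland lies against the basal cells. The sugar is started on a short linker, extended by the EXT enzymes and sulfated in the Golgi. Outside the cell the SULF enzymes remove some of its sulfate groups. Which core protein a cell makes and how the chain is sulfated together set what it can bind.

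Total counts ran from 27989137 to 49221436 per library, and mitochondrial genes took between 4.34% and 37.5% of them, with the highest shares in basal TEB replicate 1 and luminal duct replicate 3 (28.5%). The labelled cell types matched their markers. Basal markers (Krt5, Krt14, Trp63, Acta2) summed to between 3960 and 11890 CPM in basal libraries and between 8.65 and 142 CPM in luminal libraries. Luminal markers (Krt8, Krt18, Esr1, Elf5, Prlr) summed to between 8485 and 13240 CPM in luminal and between 228 and 482 CPM in basal libraries. The authors use Elf5 as a marker of luminal progenitors and Esr1 of mature luminal cells, which this sort did not separate. From luminal duct to TEB mean Elf5 went from 103 to 38.6 CPM and mean Esr1 from 62.6 to 118 CPM. Neither change passed edgeR's quasi-likelihood test (FDR 0.51 and 0.611). Their part in the luminal results was not tested. CPM are counts scaled to library size after TMM normalization. In such bulk samples fewer cells of a type and less RNA per cell cannot be told apart. P-values measure the spread between these pools of mice.

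Promoters are shown for Sdc1 and Sdc4, which passed the test between TEB and duct, and for Gpc3, which was at 0 counts in luminal duct and whose basal TEB and duct ranges did not overlap. None was at hand for Gpc6. They are RefSeq promoters of GRCm38.p6 (mm10), 5′ to 3′ on the strand of the gene, and capitals mark the GC box letters GGGCGG on either strand. Sdc1, at chr12:8771146-8771322 on the plus strand, is cut to the 177 bases before the first GENCODE exon. Sdc4 lies at chr2:164443189-164443438 and Gpc3 at chrX:52613975-52614224, both on the minus strand.
Sdc1: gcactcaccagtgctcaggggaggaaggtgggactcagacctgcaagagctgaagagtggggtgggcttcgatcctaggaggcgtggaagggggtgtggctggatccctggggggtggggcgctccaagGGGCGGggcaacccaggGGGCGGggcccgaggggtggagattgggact
Sdc4: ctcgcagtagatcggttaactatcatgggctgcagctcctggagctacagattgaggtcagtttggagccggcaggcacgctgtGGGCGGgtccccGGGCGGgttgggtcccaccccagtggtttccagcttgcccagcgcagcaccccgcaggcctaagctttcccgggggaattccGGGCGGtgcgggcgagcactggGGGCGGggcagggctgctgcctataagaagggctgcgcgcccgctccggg
Gpc3: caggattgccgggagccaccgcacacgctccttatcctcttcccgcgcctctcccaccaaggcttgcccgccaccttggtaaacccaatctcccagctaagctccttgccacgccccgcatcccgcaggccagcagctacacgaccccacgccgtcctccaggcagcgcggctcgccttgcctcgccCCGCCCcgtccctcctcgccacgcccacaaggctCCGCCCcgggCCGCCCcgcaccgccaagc
RefSeq promoters were at hand for 7 of the 10 members, as the 250 bases before each start. A GC box was found in all 7, 3 times for Sdc1 and Gpc3, 4 times for Sdc4, 5 times for Hspg2 and 12 times at 1 of the 2 Agrn starts. Of 32851 mouse promoters of this length, 32.7% held one. The AP-1 letters TGANTCA and the TATA letters TATAAA were found in none of these windows, against 6.75% and 12.4% of all promoters. Only these exact letters were counted, and near variants were not searched. The TEAD letters GGAATG occurred only in that of Gpc4, against 12.6% of all promoters. The windows shown were GC-rich, with 66.0% GC over the 250 bases for Sdc1, 68.0% for Sdc4 and 71.6% for Gpc3, where the median promoter had 52.4%. A match or its absence is a description of letters and was not related to the expression values.

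The make-up of the core proteins separated basal from luminal cells. Levels of different genes were compared as RPKM, which divides by the counted length of the gene. The 10 genes summed to 589 ± 73.7 RPKM (SD) in the 3 libraries of basal duct, 496 ± 50.5 in basal TEB (n = 3), 351 ± 34.0 in luminal duct (n = 2) and 409 ± 10.8 in luminal TEB (n = 3). Syndecans made up 83.6% ± 5.22 of this sum in luminal duct and 81.3% ± 1.40 in luminal TEB, but 44.6% ± 6.09 in basal duct and 28.1% ± 3.65 in basal TEB (SD). The 4 listed glypicans took 24.1% ± 3.00 in basal duct and 35.3% ± 3.94 in basal TEB. In luminal duct and luminal TEB they took 7.50% ± 1.70 and 12.0% ± 1.01. The glypicans Gpc2 and Gpc5 are outside this sum, as are other proteins that can carry heparan sulfate. Of these, Col18a1 had 146 and 306.5 RPKM in basal duct and TEB. In luminal duct and TEB it had 0.459 and 0.882 RPKM. Gpc2 had 4.54 and 6.77 RPKM in basal duct and TEB and 2.07 and 0.726 in luminal duct and TEB. Perlecan and agrin together took 31.4% ± 3.30 and 36.6% ± 4.08 in the basal groups and 8.89% ± 3.52 and 6.72% ± 0.414 in the luminal ones. In each of these classes all 6 basal libraries lay apart from all 5 luminal libraries. These shares are descriptions with no test.

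Within luminal cells the syndecan share was nearly the same in duct and TEB, but its make-up was not. Sdc4, the syndecan of focal adhesions, held 71.1% ± 9.10 of the sum in luminal duct and 52.7% ± 3.13 in luminal TEB. Sdc1, the main syndecan of epithelia, held 8.24% ± 3.81 and 24.2% ± 1.91. A share also falls when another member rises. The level of Sdc4 itself overlapped between luminal duct and TEB (log2 fold change −0.22, FDR 0.699 by edgeR). In basal cells the share of Sdc4 was 27.4% ± 7.25 in duct and 12.5% ± 1.36 in TEB, whereas the share of Gpc3 was 5.17% ± 2.54 and 15.4% ± 2.38. Among the listed members Agrn was the most abundant in basal TEB, with 29.9% ± 4.35 of the sum, though Col18a1, outside it, was higher.

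**Figure D1:**
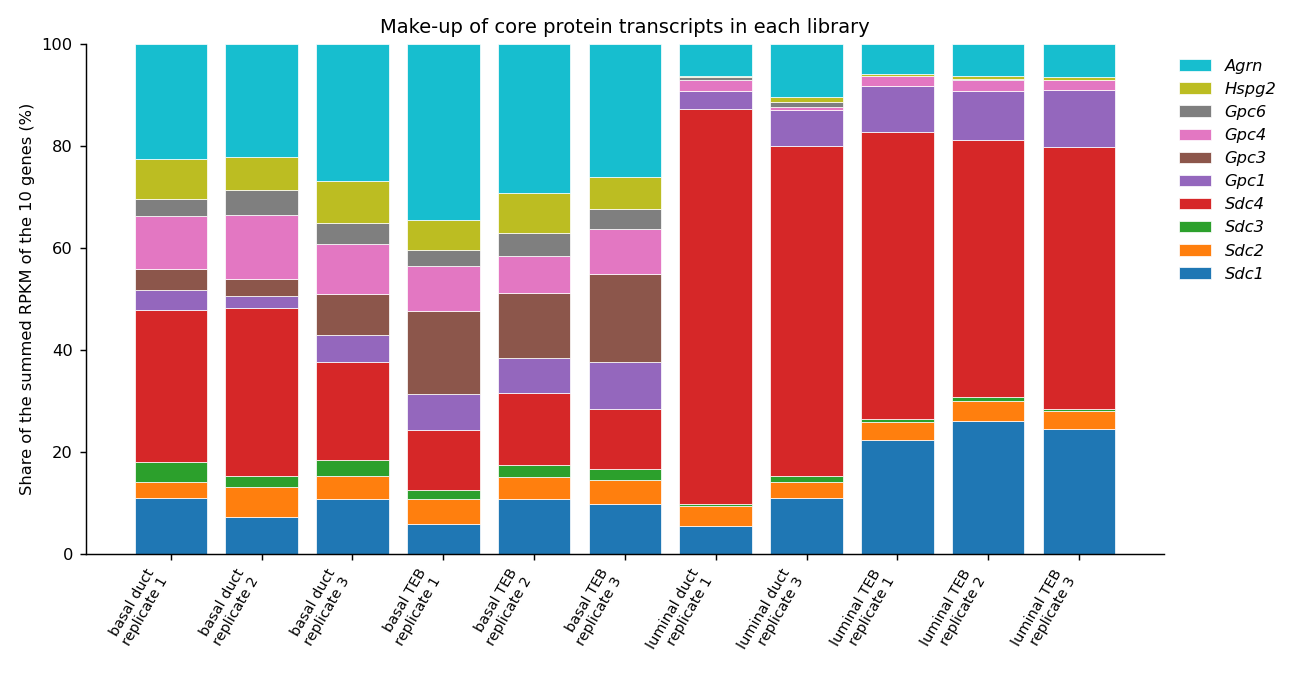
Stacked bars give the share (%) of each gene in the summed RPKM of the 10 genes, for each of the 11 libraries. Sdc4 holds most of every luminal bar, Sdc1 widens in luminal TEB to 24.2% on average, and Gpc3 widens in basal TEB to 15.4%.

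The next comparison asked how proteoglycan expression of the growing TEB differs from that of the duct within each cell type. In luminal cells Sdc1 rose in TEBs and Gpc6 fell, and in basal cells Sdc4 fell. No other member passed the test in either cell type. Gpc1 and Gpc3 lay higher in every TEB library than in every duct library of the same cell type, without passing it. Gpc4 lay lower in every basal TEB library than in every basal duct library, also without passing. Of all genes, 20.8% did not overlap between TEB and duct in basal cells and 43.7% in luminal cells. Luminal Gpc3 was close to 0, with 0 counts in duct and 7, 18 and 18 in TEB.

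Sdc1 (Entrez 20969, chr12:8771396-8793716) had 63.6 and 109 CPM in luminal duct replicates 1 and 3 and 270.3, 326 and 313 CPM in luminal TEB replicates 1 to 3. Every luminal TEB library thus lay above both luminal duct libraries, by more than their spread. The log2 fold change was 1.81 (SE 0.339, edgeR quasi-likelihood test, FDR 0.0276). In basal cells Sdc1 had 224, 116 and 188 CPM in ducts and 95.7, 169 and 132 CPM in TEBs. These ranges overlapped, and the log2 fold change was −0.41 (SE 0.284, FDR 0.543 by edgeR). The call in luminal cells was lost without luminal duct replicate 1 (log2 fold change 1.47, FDR 0.0512), without any 1 of luminal TEB replicates 1, 2 and 3 (0.0749, 0.0844 and 0.108), without basal TEB replicate 3 (0.0506), with the replicate number as a block (0.0531) and without composition normalization (0.0861). The direction was the same in all 23 alternatives.

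The cell types were therefore compared for Sdc1 by the interaction term, the change of TEB against duct in basal cells minus that in luminal cells. It was −2.22 (SE 0.437) with an FDR of 0.0596 by edgeR's quasi-likelihood test, just outside the threshold. By DESeq2 the FDR was 0.000241 and by limma voom it was 0.0241, and it was under 0.05 in 9 of 22 alternatives. No member passed the interaction test, against 0.443% of all genes tested, although 5 members had an unadjusted p under 0.05, as did 14.7% of all genes. The likelihood ratio test and DESeq2 each called 3 members and limma voom called 1. The order of the groups for Sdc1 was luminal TEB, then basal duct and basal TEB, which overlapped, then luminal duct, which overlapped basal TEB.

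Sdc4 (Entrez 20971, chr2:164424247-164443188) had 493, 427 and 269.9 CPM in basal duct replicates 1 to 3 and 154, 176 and 128 CPM in basal TEB replicates 1 to 3. Each basal TEB library lay below each basal duct library. The log2 fold change was −1.38 (SE 0.235, FDR 0.0159 by edgeR). In luminal cells Sdc4 stayed high in both structures, with 716 and 521 CPM in ducts and 551, 508 and 530.2 CPM in TEBs. There the log2 fold change was −0.22 (SE 0.257, FDR 0.699 by edgeR), and the interaction of −1.15 (SE 0.350) had an FDR of 0.178. The basal call was lost without basal duct replicate 1 (FDR 0.0733) or 2 (0.0654), without basal TEB replicate 1 (0.0610) or 3 (0.110) and without composition normalization (0.113), with log2 fold changes between −1.59 and −1.22 over all 23 alternatives.

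Summed basal markers were also lower in basal TEB (3960 to 6054 CPM) than in basal duct (9887 to 11890 CPM), and so were luminal markers (228 to 246 CPM against 396 to 482 CPM), among which Krt18 fell by 1.98 on the log2 scale (SE 0.228, FDR 0.00197 by edgeR). The part of either in the Sdc4 result was not tested. Without both libraries of high mitochondrial share the log2 fold change of Sdc4 was −1.37 (FDR 0.0338).

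The other syndecans differed less between structures. Sdc2 had 69.2, 102 and 86.0 CPM in basal duct and 89.2, 70.3 and 68.9 CPM in basal TEB, which overlapped (log2 fold change −0.17, SE 0.201, FDR 0.753). In luminal cells it had 47.7 and 33.9 CPM in duct and 46.5, 52.0 and 49.7 CPM in TEB (0.27, SE 0.227, FDR 0.566). Sdc3, known mainly from nerve and muscle, had 132, 56.9 and 87.6 CPM in basal duct and 47.5, 61.9 and 46.3 CPM in basal TEB, which overlapped (−0.83, SE 0.392, FDR 0.360). Its luminal levels were low, 7.08 and 19.3 CPM in duct and 12.1, 18.3 and 9.67 CPM in TEB, with a log2 fold change of 0.02 (SE 0.441). Exons of the antisense genes Gm12970 and Gm26716 cover 48 and 415 bases of the Sdc3 exons in GENCODE, and the counting is not stated to use strand, so reads of these genes cannot be told apart there.

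Among the glypicans, Gpc3 was high in basal cells and at or close to 0 in luminal cells. It binds Hedgehog proteins, and its loss causes overgrowth in mice and people. Gpc3 (Entrez 14734, chrX:52272426-52613974) had 64.5, 38.5 and 104 CPM in basal duct and 199, 147 and 172 CPM in basal TEB, so that the 2 groups did not overlap. The log2 fold change of 1.32 (SE 0.336) did not pass the test (FDR 0.103 by edgeR's quasi-likelihood test). It passed by DESeq2 (FDR 0.0162), by limma voom (0.00971), by the likelihood ratio test (0.0141), with sample quality weights (0.0243) and without basal duct replicate 3 (log2 fold change 1.74, FDR 0.0342).

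In luminal duct Gpc3 had 0 counts in both libraries, where a count of 0 allows up to 3 counts a library, on average 0.0958 CPM. In luminal TEB it had 7, 18 and 18 counts (0.157, 0.343 and 0.347 CPM), and the mean of these was at least 2.94-fold higher than in luminal duct (FDR 0.0571 by edgeR's quasi-likelihood test). This difference passed by the likelihood ratio test (FDR 0.00021), by DESeq2 (0.00687), without the filter (0.0257) and without basal duct replicate 2 (0.0268) or 3 (0.0374). Summed basal markers were 60 and 142 CPM in the same luminal duct libraries and between 8.65 and 16.7 CPM in luminal TEB. Fibroblast markers (Col1a1, Col1a2, Col3a1, Pdgfra, Dcn, Lum) summed to between 430.2 and 840 CPM in basal duct and between 226 and 406 CPM in basal TEB. The single markers differed over the 3 basal TEB libraries. Dcn ran from 113 to 159.8 CPM, Col3a1 from 32.3 to 128, Col1a1 from 19.5 to 41.1 and Col1a2 from 16.8 to 50.0 CPM. Pdgfra ran from 0.0577 to 21.8 CPM and Lum from 0 to 5.74 CPM. The part of fibroblast RNA in the Gpc3 levels was not tested.

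Gpc4 (Entrez 14735, chrX:52051007-52164923), the neighbour of Gpc3 on the X chromosome, did not share its pattern across basal cells. It had 162, 155 and 131 CPM in basal duct and 113, 86.1 and 90.8 CPM in basal TEB, without overlap and in the opposite direction to Gpc3. Its log2 fold change was −0.63 (SE 0.347, FDR 0.429 by edgeR), which passed only when both libraries of high mitochondrial share were left out (−0.75, FDR 0.0454). In luminal cells Gpc4 had 19.7 and 5.22 CPM in duct and 17.4, 20.0 and 18.1 CPM in TEB (log2 fold change 0.56, SE 0.397, FDR 0.495). That value hung on luminal duct replicate 3, with −0.09 (FDR 0.961) without it, and without luminal duct replicate 1 it was 1.83 (FDR 0.00334).

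Gpc6 (Entrez 23888, chr14:116924920-117979529) had 16.0 and 21.6 CPM in luminal duct and 1.91, 5.45 and 1.31 CPM in luminal TEB. Each TEB library lay far below both duct libraries, with a log2 fold change of −2.70 (SE 0.450, FDR 0.0180 by edgeR). In basal cells it had 146, 172 and 161 CPM in duct and 111, 154 and 117 CPM in TEB, which overlapped (−0.33, SE 0.391, FDR 0.758). The interaction was 2.37 (SE 0.593, FDR 0.118). Basal markers were likewise lower in luminal TEB than in luminal duct, by the sums given for Gpc3, and their part in the Gpc6 result was not tested. The luminal call was lost without luminal duct replicate 3 (FDR 0.0618), luminal TEB replicate 1 (0.0730) or luminal TEB replicate 3 (0.0537), without both libraries of high mitochondrial share (0.0549), without composition normalization (0.0996) and with only the 2 luminal groups fitted (0.0731).

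Gpc1, a glypican that binds FGFs, lay higher in TEB in both cell types. It had 90.5, 44.0 and 109 CPM in basal duct and 135, 126 and 145 CPM in basal TEB (log2 fold change 0.74, SE 0.303, FDR 0.298). In luminal cells it had 45.4 and 81.8 CPM in duct and 129, 139 and 166 CPM in TEB (1.19, SE 0.351, FDR 0.118 by edgeR). In both cell types TEB and duct did not overlap, but neither change passed the test. The luminal change passed by DESeq2 (FDR 0.0353), by the likelihood ratio test (0.0345) and without basal duct replicate 2 (0.0430). The proliferation markers Mki67 and Top2a summed to between 641 and 1051 CPM in basal TEB and between 183 and 549 CPM in basal duct, and to between 661 and 748 CPM in luminal TEB against 260 and 308 CPM in luminal duct. Their part in the Gpc1 levels was not tested. Exons of Ankmy1 on the opposite strand cover 977 bases of the Gpc1 exons in GENCODE, so its counts carry the same limit as those of Sdc3.

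The basement membrane members showed no change between structures that passed the test. Agrn (Entrez 11603, chr4:156165290-156197533), which binds dystroglycan and Lrp4, had 1112, 864 and 1132 CPM in basal duct and 1375, 1097 and 845 CPM in basal TEB. These overlapped, with a log2 fold change of 0.09 (SE 0.225, FDR 0.903). In luminal cells it had 172 and 252 CPM in duct and 175, 192 and 201 CPM in TEB (−0.16, SE 0.25, FDR 0.788). Hspg2 (Entrez 15530, chr4:137468751-137570630), a large matrix proteoglycan, had 758, 476 and 668 CPM in basal duct and 444, 578 and 394 CPM in basal TEB (−0.43, SE 0.437, FDR 0.710). In luminal cells its level was low and differed between the duct libraries, 9.83 and 43.5 CPM, against 15.4, 29.6 and 31.5 CPM in TEB (−0.06, SE 0.493, FDR 0.984). The higher of the luminal duct libraries, replicate 3, also held more fibroblast markers (249.7 CPM against 6.03 CPM in replicate 1). Summed basal markers were higher there as well (142 against 60 CPM). So were those of endothelium (Pecam1, Cdh5, Kdr, 24.9 against 1.02 CPM) and adipocytes (Adipoq, Plin1, Fabp4, Lep, 75.1 against 0 CPM). Pericyte markers (Rgs5, Pdgfrb, Kcnj8) had 14.1 against 0 CPM and immune markers (Ptprc, Cd68, Cd3e, Lyz2) 40.1 against 11.3 CPM. Summed luminal markers were lower (8639 against 13240 CPM). The part of these in the Hspg2 level was not tested. Without luminal duct replicate 3 the log2 fold change of Hspg2 was 1.37.

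In counts, 0 members rose and 1 fell in basal TEB, against 0.167% and 1.16% of all genes tested, with 3 members at an unadjusted p under 0.05, as were 14.5% of all genes. DESeq2, limma voom and the likelihood ratio test each called 1 higher and 1 lower. In luminal TEB 1 member rose and 1 fell, against 0.639% and 0.771% of all genes, and 4 had an unadjusted p under 0.05, against 16.6%. There DESeq2 and the likelihood ratio test each called 3 higher and 1 lower, and limma voom 1 higher and 1 lower. Members without overlap between TEB and duct numbered 4 of 10 in basal cells, against 20.8% of all genes, and 4 of 10 in luminal cells, against 43.7%. The median log2 fold change over the members was −0.37 in basal cells (all genes −0.03) and 0.15 in luminal cells (all genes 0.04).

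**Figure D2:**
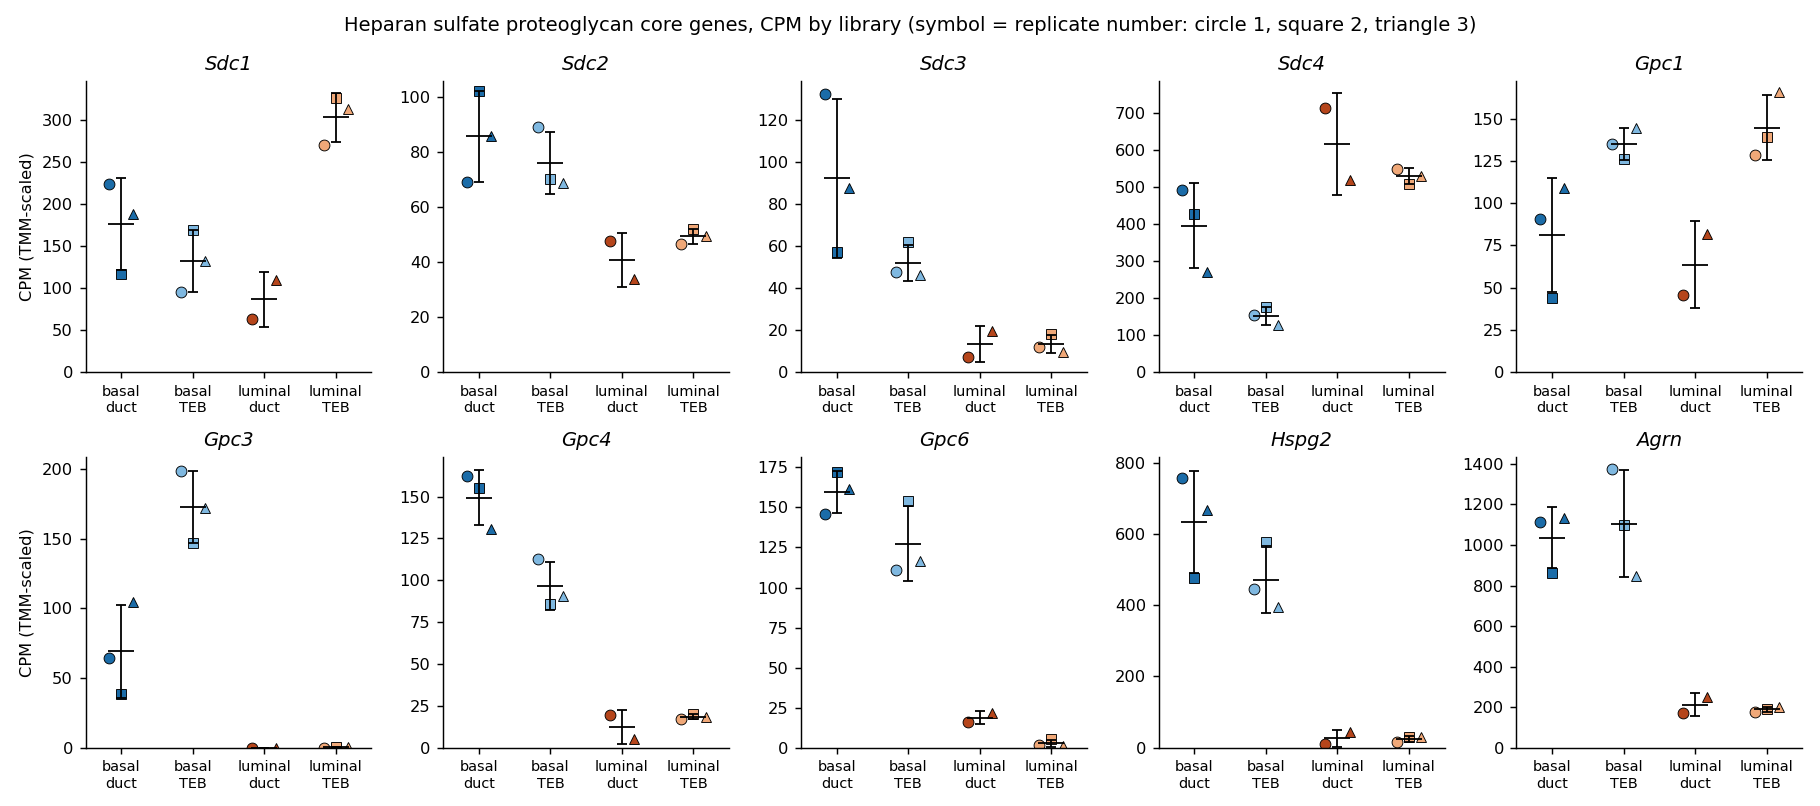
Each panel gives the CPM of 1 gene (linear axis from 0) in the 11 libraries, with symbols for the replicate number and a bar for the group mean ± SD (n = 3, or n = 2 in luminal duct). Sdc1 is highest in luminal TEB (270.3 to 326 CPM), Sdc4 is lowest in basal TEB (128 to 176 CPM), and Gpc3 reaches at most 0.347 CPM in luminal libraries.

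The comparison of basal with luminal cells asked which compartment expresses each core protein. In ducts, 8 of 10 members were higher in basal cells and 0 were lower, where 12.6% of all genes were higher and 9.71% lower. DESeq2 and limma voom also called Sdc4 lower (FDR 0.0480 and 0.0339), which the main test placed at a log2 fold change of −0.64 (SE 0.255, FDR 0.0950). In TEBs, 7 members were higher in basal cells and 2 were lower, where 13.2% and 11.8% of all genes were. Members without overlap between cell types numbered 9 of 10 in ducts and 9 of 10 in TEBs, against 46.0% and 49.8% of all genes. Gpc1 was the exception in both. The median log2 fold change over the members was 2.55 in ducts and 2.17 in TEBs, against 0.08 and 0.04 over all genes.

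Sdc3, Gpc3, Gpc4, Gpc6, Hspg2 and Agrn were higher in basal cells of both structures, and remained so in all 23 alternatives. Gpc3 was at least 722-fold higher in basal than in luminal duct (FDR 3.13e-06), and its log2 fold change in TEBs was 9.22 (SE 0.491, FDR 4.59e-07). Hspg2 came next in ducts, with 4.58 (SE 0.607, FDR 0.000192), and had 4.21 in TEBs (SE 0.499, FDR 6.02e-05). The differences of Gpc6 were 3.09 in ducts (SE 0.5) and 5.46 in TEBs (SE 0.477), those of Gpc4 were 3.57 (SE 0.454) and 2.38 (SE 0.364), and those of Sdc3 were 2.81 (SE 0.492) and 1.96 (SE 0.405). Agrn was expressed in both cell types and differed by 2.29 in ducts (SE 0.275) and 2.54 in TEBs (SE 0.238). Fibroblast markers were also higher in basal libraries of each structure by their sums, and 1 of 6 (Dcn) passed the test in each structure. Their part in these differences was not tested.

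Sdc1 passed the test in opposite directions in the 2 structures, although its interaction did not pass (FDR 0.0596). It was higher in basal cells of ducts (log2 fold change 1.03, SE 0.327, FDR 0.0419) and lower in basal cells of TEBs (−1.20, SE 0.287, FDR 0.00882). The TEB difference passed in all 23 alternatives, but the duct difference in only 13, with log2 fold changes from 0.69 to 1.47. It was lost, with FDRs from 0.0587 to 0.240, when basal duct replicate 1 or 3, basal TEB replicate 3, luminal duct replicate 1 or any luminal TEB library was left out. It was also lost without composition normalization (0.102), with only the duct groups fitted (0.101) and with the replicate block (0.0543). Sdc4 was lower in basal cells of TEBs (−1.79, SE 0.238, FDR 0.000143). Sdc2 was higher in basal cells, by 1.07 in ducts (SE 0.233, FDR 0.00572) and 0.62 in TEBs (SE 0.202, FDR 0.0408). The Sdc2 difference in TEBs was lost when any 1 of the TEB libraries or basal duct replicate 3 was left out (FDR 0.0550 to 0.138), and without composition normalization it was 0.17 (FDR 0.708). That in ducts was lost without luminal duct replicate 3 (FDR 0.0536). Gpc1 was the only member for which neither comparison passed, with 0.35 (SE 0.341) in ducts and −0.10 (SE 0.301) in TEBs.

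**Figure D3:**
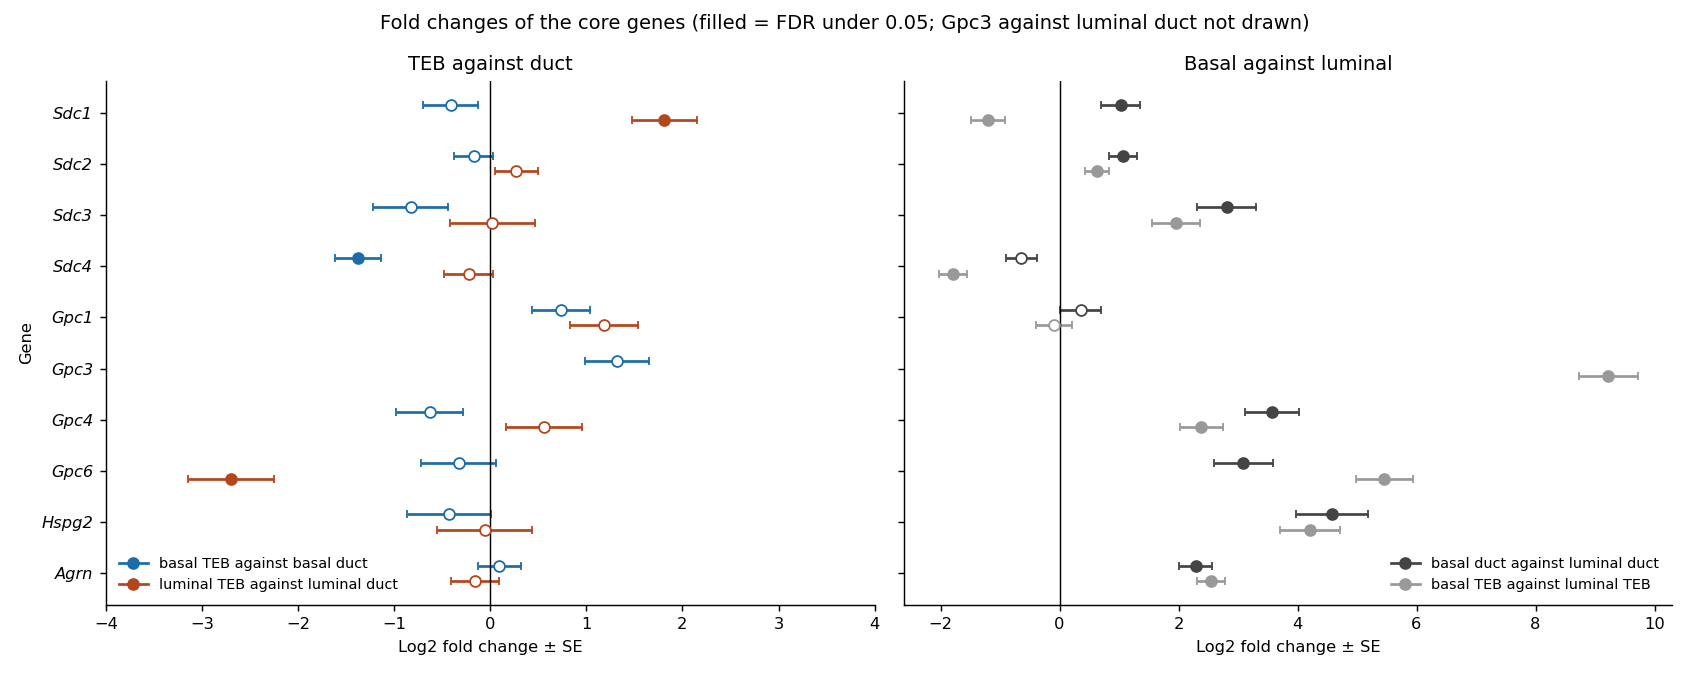
Points give the log2 fold change of each gene with its SE (horizontal bars), on the left for TEB against duct in basal and luminal cells, on the right for basal against luminal cells of each structure. Filled points have an FDR below 0.05, and the comparisons of Gpc3 with luminal duct, which had 0 counts, are not drawn. On the left 3 points are filled (Sdc1 and Gpc6 in luminal cells, Sdc4 in basal cells).

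The genes that build and edit the heparan sulfate chain were compared in the same way. Of 32 listed, 29 were tested. In ducts 12 were higher in basal cells and 3 lower, where 12.6% and 9.71% of all genes were. In TEBs 9 were higher and 3 lower, against 13.2% and 11.8% of all genes. The 3 lower genes in each structure were close to the share of all genes. The median log2 fold change was 0.70 in ducts and 0.65 in TEBs. Of the 7 genes of the linker, 2 were higher and 1 lower in basal duct, against 12.6% and 9.71% of all genes. Xylt2, whose product attaches the first sugar, was higher there by 1.41 on the log2 scale (SE 0.318, FDR 0.00713). In TEBs its difference did not pass (0.65, SE 0.271, FDR 0.104). Xylt1, with the same role, is named although its mean level was below the limit for naming. It was at least 29.5-fold higher in basal duct (FDR 0.0106), where luminal duct had 0 counts. In TEBs its log2 fold change was 9.06 (SE 1.73, FDR 0.00267). Pxylp1, a phosphatase acting on that sugar, was lower in basal cells, with −2.10 (SE 0.290) in ducts and −2.78 (SE 0.279) in TEBs.

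Ext1 and Ext2 encode the subunits of the polymerase. Ext1 had 225, 237 and 215 CPM in basal duct and 164, 181 and 164 CPM in basal TEB, against 20.5 and 35.1 CPM in luminal duct and 23.0, 23.7 and 22.3 CPM in luminal TEB. All basal libraries lay above all luminal ones, with log2 fold changes of 3.02 in ducts (SE 0.237, FDR 5.27e-06) and 2.88 in TEBs (SE 0.199, FDR 1.04e-06). The difference of Ext2 was 1.22 (SE 0.296) in ducts and 1.09 (SE 0.257) in TEBs. Extl2, an EXT-like glycosyltransferase, was higher in basal duct (2.52, SE 0.595), and the related Extl1 in basal TEB (1.81, SE 0.600, FDR 0.0452).

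Among the sulfotransferase genes, 3 were expressed in every basal library and at low levels in luminal ones. Hs6st2, a 6-O-sulfotransferase, had 55.8 to 63.5 CPM in basal duct and 56.1 to 70.2 CPM in basal TEB, but at most 0.0963 CPM in any luminal library. The 3-O-sulfotransferase genes Hs3st3b1 and Hs3st3a1 were also basal, with log2 fold changes of 5.71 (SE 0.417) and 3.90 (SE 1.23, FDR 0.0400) in ducts and 5.87 (SE 0.346) and 9.46 (SE 1.38) in TEBs. Luminal duct replicate 3 held 4.11 CPM of Hs3st3a1 where replicate 1 held 0, and the duct difference passed in 14 of 23 alternatives. Ndst4, an N-deacetylase and N-sulfotransferase named here although its mean level was below the limit for naming, had 4.55 and 3.04 CPM in luminal duct and 12.4, 6.31 and 11.4 CPM in luminal TEB, and at most 0.868 CPM in basal libraries. Glce, the epimerase of the chain, was higher in basal duct (1.89, SE 0.481, FDR 0.0139).

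The extracellular 6-O-endosulfatases were divided between the cell types. Sulf1 had 41.3, 28.2 and 20.2 CPM in basal duct and 8.48, 12.9 and 10.5 CPM in basal TEB, and at most 1.27 CPM in luminal libraries. Sulf2 was higher in luminal cells, with 83.9 and 114 CPM in duct and 120.2, 125 and 128 CPM in TEB, against 26.1, 18.9 and 36.6 CPM in basal duct and 49.7, 39.6 and 41.7 CPM in basal TEB. No basal library reached the lowest luminal one for Sulf2. The log2 fold change of basal against luminal cells was 5.26 for Sulf1 (SE 0.761) and −1.86 for Sulf2 (SE 0.255) in ducts, and 3.92 (SE 0.595) and −1.51 (SE 0.235) in TEBs. Hpse2, a heparanase relative without known enzyme activity, was higher in basal cells, by 3.92 in ducts (SE 1.06) and 3.41 in TEBs (SE 0.874).

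Between TEB and duct 1 of the 29 enzyme genes passed. In basal cells 0 were higher and 1 was lower, against 0.167% and 1.16% of all genes. There 9 of the 29 had an unadjusted p under 0.05, against 14.5% of all genes. Hs6st1, the other main 6-O-sulfotransferase, had 116, 98.8 and 93.7 CPM in basal duct and 34.5, 55.5 and 61.2 CPM in basal TEB. The groups did not overlap, with a log2 fold change of −1.03 (SE 0.214, FDR 0.0415 by edgeR). In luminal cells it had 27.4 and 29.0 CPM in duct and 47.2, 53.1 and 47.6 CPM in TEB, higher in every TEB library (0.80, SE 0.243, FDR 0.126). The interaction passed the test, at −1.83 (SE 0.325, FDR 0.0330). Both calls were close to the threshold and held in 12 of 23 alternatives for the basal change (FDR 0.00057 to 0.321) and 11 of 22 for the interaction (FDR 0.000119 to 0.127). The basal change was lost without basal duct replicate 1, 2 or 3, basal TEB replicate 1 or 3 or any luminal TEB library, and the interaction without any basal duct library, basal TEB replicate 3, luminal duct replicate 3 or any luminal TEB library. With the replicate number as a block the FDRs were 0.0618 and 0.0792. In luminal cells 0 enzyme genes passed, where 0.639% of all genes were higher and 0.771% lower. An unadjusted p under 0.05 was found for 5 of the 29, close to the 16.6% of all genes, while DESeq2 and the likelihood ratio test called 2 each and limma voom 0.

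**Figure D4:**
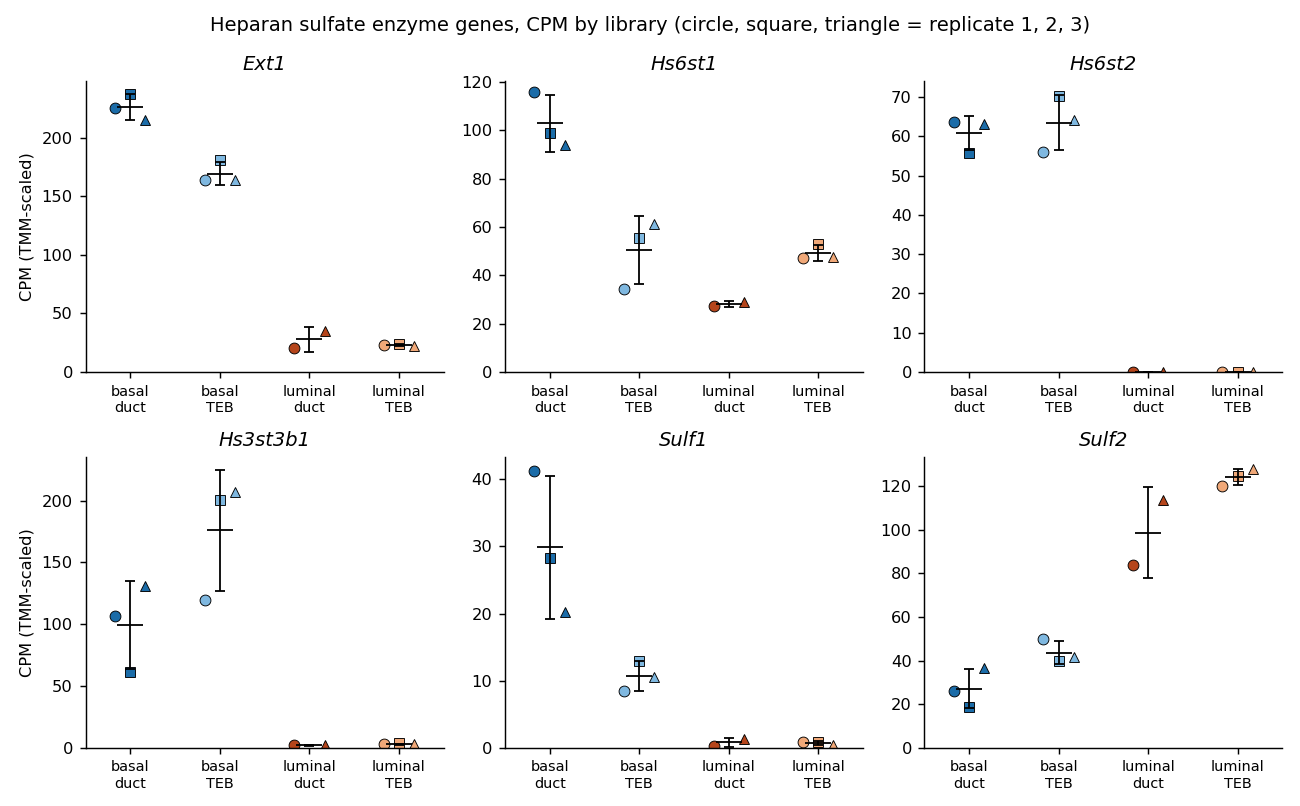
Panels give the CPM (linear axis from 0) of 6 heparan sulfate enzyme genes in the 11 libraries, with the group mean ± SD (n = 3, or n = 2 in luminal duct). Ext1, Hs6st2, Hs3st3b1 and Sulf1 are high in basal and low in luminal libraries, Sulf2 is the reverse, and Hs6st1 is highest in basal duct (93.7 to 116 CPM).

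Genes of other proteins that can carry heparan sulfate were listed as well. Of 9 listed and 7 tested, 5 were higher in basal duct and 6 in basal TEB, where 12.6% and 13.2% of all genes were. Col18a1, a collagen of the epithelial basement membrane, had a log2 fold change of 8.38 in ducts (SE 1.21) and 8.44 in TEBs (SE 0.994). Tgfbr3, a TGF-beta co-receptor, had 7.90 (SE 0.815) and 7.66 (SE 0.666), and Spock2, a testican, had 9.13 (SE 0.961) and 4.79 (SE 0.617). Spock3, another testican, was at least 161-fold higher in basal duct, where luminal duct had 0 counts, and had a log2 fold change of 9.26 in TEBs (SE 0.778). None of the 7 passed between TEB and duct by edgeR's quasi-likelihood test in either cell type, although 1 in basal and 4 in luminal cells had an unadjusted p under 0.05, against 14.5% and 16.6% of all genes. DESeq2 called 0 and 2 of them, and limma voom 1 and 0.

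Partners of the core proteins were listed too, among them the agrin receptors and the nidogens, which link perlecan to laminin. Of 9 listed and 8 tested, 4 were higher in basal cells of each structure, against 12.6% of all genes in ducts and 13.2% in TEBs. The 1 that was lower in basal TEB is close to the 11.8% of all genes that were. Dag1 (dystroglycan) was higher by 2.97 in ducts (SE 0.382) and 2.31 in TEBs (SE 0.316), and Lrp4 by 3.29 (SE 0.318) and 2.55 (SE 0.260). Nid1 was higher by 4.64 (SE 0.833) and 4.11 (SE 0.676). Gipc1, a PDZ protein that binds syndecan tails, was lower in basal TEB (−1.86, SE 0.394). Of the genes whose products release core proteins from the cell (4 listed, 3 tested), the sheddase gene Adam10 was lower in basal cells, with −1.75 in ducts (SE 0.237) and −2.12 in TEBs (SE 0.223). Gpld1, a phospholipase that cuts the lipid anchor, was lower in basal TEB (−1.43, SE 0.392).

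Over the 11 libraries the member levels fell into patterns that are given here as descriptions of log2 CPM, since the libraries share cell type and structure. Hspg2 and Agrn followed each other most closely among members (Pearson r = 0.979), and Sdc4 ran opposite to Gpc3 (r = −0.811) and Agrn (r = −0.745). Among 7707 genes compared, those most like Agrn were Col4a2 (r = 0.994), a basement membrane collagen, and Colgalt1 (0.992), a collagen glycosyltransferase. Those most like Hspg2 were Soga1 (0.995) and Ptprs (0.992), a receptor phosphatase that binds heparan sulfate. Gpc6 was most like Mfge8 (0.994) and Tns4 (0.992), and Gpc4 most like Nptn (0.992) and Axl (0.989). Gpc1 was most like Spag5 (0.970) and Kif15 (0.967), which encode proteins of the mitotic spindle. Sdc4 was most like Anxa1 (0.972) and Atf3 (0.964), Sdc1 most like Atm (0.955) and Ep300 (0.955), Sdc2 most like Sh3bgrl (0.960) and Maea (0.958), and Sdc3 most like Soga1 (0.974) and Tns3 (0.970). Gpc3 was below the level set for this search.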

How the data were processed

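Bulk RNA-seq was analysed from 11 libraries in 4 groups. The authors aligned paired-end reads to mm10 and counted them by Entrez gene with featureCounts and the inbuilt RefSeq annotation of Rsubread, which gave the deposited values, raw counts in whole numbers. Versions were not given in the sources used here. Library tables equalled the series table, and 0 columns were unused. edgeR 4.0.16 in R 4.3.3 was used for the main test, and limma 3.58.1 and DESeq2 1.42.0 for alternatives. After filterByExpr (minimum count of 10, minimum total of 15) and TMM scaling, the groups were fitted in 1 model and tested by quasi-likelihood, and p-values were adjusted by Benjamini and Hochberg over 17370 genes (FDR 0.05). The common biological coefficient of variation was 0.704. The SE was taken as the size of the log2 fold change over the root of F. RPKM used the deposited gene lengths, and log2 CPM a prior count of 2. A group at 0 was set to 3 counts per library, which covers counting error only.

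The members and lists were chosen with earlier results of these data known. All members were named, and of other lists the called genes with the largest changes, up to 4 per list and comparison, among those whose mean log2 CPM reached 0. Likeness used members and genes whose mean log2 CPM reached 4. Scripts were tested on simulated counts. Alternatives were other scalings, filters and tests, the replicate block, mitochondrial genes removed, only the groups compared, and libraries left out. Protein sequences were not used here.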

Additional observations from a re-analysis of the deposited data

Results flagged for a closer look

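The change of Hs6st1, a 6-O-sulfotransferase gene, from duct to TEB differed between basal and luminal cells, by an interaction of −1.832 on the log2 scale (SE 0.325, FDR 0.0330 by edgeR's quasi-likelihood test). It was lower in all 3 basal TEB libraries than in any basal duct library, and higher in all 3 luminal TEB libraries than in either luminal duct library. The luminal change alone did not pass the test (FDR 0.126).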

How the results depend on the processing

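Over 1140 checks of a member's fold change against an alternative, 1033 kept their direction and their side of the threshold, 40 lost the call, 33 gained it and 34 changed direction. Members called in basal TEB against duct (1) numbered 0 without composition normalization, 2 by the likelihood ratio test, DESeq2, limma voom, sample quality weights and without both libraries of high mitochondrial share, and 0 to 2 with a library left out. Those in luminal TEB against duct (2) numbered 0 without composition normalization, 4 by the likelihood ratio test and DESeq2, 1 with the replicate block, without the high-mitochondrial libraries and with only the groups compared, and 0 to 4 with a library left out. In the interaction (0) they numbered 3 by the likelihood ratio test and DESeq2, 1 without the filter, by limma voom, with quality weights and without the high-mitochondrial libraries, and 0 to 1 with a library left out. Heparan sulfate enzyme genes called in basal TEB against duct (1) numbered 0 without composition normalization, with the replicate block and with only the groups compared, 2 by the likelihood ratio test, DESeq2 and without the high-mitochondrial libraries, and 0 to 1 with a library left out. In luminal cells (0) they numbered 2 by the likelihood ratio test, DESeq2 and with only the groups compared, 1 without the high-mitochondrial libraries, and 0 to 2 with a library left out. In the interaction (1) they numbered 0 without composition normalization, with quality weights and with the replicate block, 2 by the likelihood ratio test, and 0 to 2 with a library left out. Basal against luminal counts stayed within 1.5 times under every alternative.

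No value that changed direction passed its test in the setting that turned it or in the main test, but Gpc4 in luminal TEB against duct passed without luminal duct replicate 1 (FDR 0.00334). In basal TEB against duct, Agrn had −0.103 without composition normalization, −0.0909 with quality weights and −0.0864 without the high-mitochondrial libraries. In luminal TEB against duct, Sdc3 had −0.0548 with DESeq2 size factors, −0.0227 with the mean CPM filter, −0.0576 by DESeq2, −0.0141 with the replicate block and −0.00545 with only the groups compared. Without composition normalization Sdc4 had 0.14, Hspg2 0.43 and Agrn 0.25, and without the high-mitochondrial libraries Gpc4 had −0.0745, Hspg2 1.39 and Agrn 0.15. Hspg2 had 0.56 by limma voom, 0.78 with quality weights and 0.0373 with the replicate block. The Agrn interaction was −0.36 without composition normalization, −0.0327 with quality weights and −0.24 without the high-mitochondrial libraries. With 1 library left out in turn, Agrn ran from −0.0864 to 0.25 in basal TEB against duct. In luminal TEB against duct, Sdc3 ran from −0.53 to 0.91, Sdc4 from −0.44 to 0.0266, Gpc4 from −0.0916 to 1.83, Hspg2 from −0.77 to 1.37 and Agrn from −0.41 to 0.14. Gpc1 ran from −0.0084 to 0.84 in basal against luminal duct and from −0.18 to 0.0070 in TEBs, and the interaction ran from −1.80 to 0.34 for Hspg2 and from −0.0443 to 0.50 for Agrn. The cause was not tested. Without composition normalization the median of all genes moved from −0.03 to −0.16 in basal and from 0.04 to 0.42 in luminal TEB against duct, and from 0.04 to −0.35 in basal against luminal TEB. Same-numbered libraries correlated with r from −0.07 to 0.16 in their deviations from group means. Libraries of different numbers were not compared, so this cannot tell whether the numbers pair samples. The main fit did not pair them, and the block was an alternative. With the block the Sdc1 calls in luminal TEB (FDR 0.0531) and basal duct (0.0543) and the Sdc2 call in basal TEB (0.0631) were lost. Of 40 shares of summed RPKM, 29 moved by more than 1 SD when CPM was used. The luminal duct group rests on 2 libraries.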
